A study of Mus musculus with 8 samples.

Results

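The expression of imprinted genes was examined in 8 RNA-seq libraries of mouse embryonic stem cells (mESCs) and of cells derived from them. An imprinted gene is transcribed mainly from 1 parental chromosome, according to a methylation mark set in the egg or in the sperm. Most imprinted genes lie in clusters that share a control region. Many of them act on growth of the fetus, on the placenta and on metabolism, and their marks are known to be labile in cultured mESCs. The set comprised 38 genes known to be imprinted in the mouse, taken from a list of names. Maternal or paternal expression is given as known for each gene, and no parental allele was read in these libraries. By symbol, 37 of the 38 genes were found among the 37620 genes of the files. Kcnq1ot1, the paternal antisense RNA of the Kcnq1 cluster, had no entry by that symbol and has no value here. Of the 37, 36 had at least 10 counts in at least 2 libraries and were tested among 16961 genes. Dcn, which encodes decorin of the extracellular matrix, did not, and its highest level was 1.72 CPM (the usual scale on which the counts of a gene are divided by those of all genes) in the sorted cells.

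The 8 libraries fell into 5 groups. The R1 line was cultured in serum-containing medium without feeder cells in 3 of them: with 2i (the GSK3 inhibitor CHIR99021 and the MEK inhibitor PD0325901) for 5 days, with 2iJ (2i and a JAK inhibitor) for 5 days, and with 2iJ+B-A (2iJ, BMP4 and ALK5 inhibitor II) for 2, 5 or 11 days. BMP4 activates the SMADs of the BMP branch, and the ALK5 inhibitor blocks receptors of Activin and Nodal. The sorted group was 1 library of GFP-positive cells from a Cdx2-GFP reporter line after 2 days in 2iJ+B-A, so that line, sort and treatment entered together. The mesoderm progenitors were embryoid body cells of the R1 line on day 3 and on day 4, made without 2i in another medium with BMP4, Activin A and Wnt3a, and the day 4 cells also had a day of IWP-2, an inhibitor of Wnt secretion. The 2i, 2iJ and sorted groups thus had 1 library each, 2iJ+B-A had 3 and the mesoderm progenitors had 2. No label says that the days of a group came from separate cultures, so p-values measure only the spread between these libraries.

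Libraries held between 19810855 and 31453888 counts in genes. The sorted library stood apart, with 29.7% unmapped read pairs and 29.6% of unique pairs outside genes on the expected strand, against at most 3.85% and 16.4% elsewhere. Marker lists matched the labels in part. Among mesoderm markers, 9 of 10 tested were higher in the mesoderm progenitors than in 2iJ+B-A, and 5 of 8 pluripotency markers were lower, although day 3 cells still had Pou5f1 at 701 CPM. The level of Cdx2 was 234.5 CPM after sorting, against 15.0 to 30.1 CPM in 2iJ+B-A. Elf5, which marks trophoblast stem cells, was at 0.909 CPM or less in every library. Sample codes in the labels differ in their first letter between mesoderm progenitors, sorted cells and the other 5 libraries, so a batch that followed them cannot be told apart from these groups.

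The start regions of H19 and of Peg3 with Usp29 are shown because genes read from them had some of the largest differences between groups. In the files' annotation H19 lies at chr7:149761434-149764048 on the minus strand, and it is shown by 250 bases before and 50 bases after its annotated start, chr7:149763999-149764298 of NCBIM37, minus strand. Peg3 is shown by the window of the same shape from RefSeq, chr7:6730370-6730669 of GRCm38.p6, minus strand. RefSeq places the start of Usp29 on the plus strand there with 163 bases between both starts, so both are read away from each other. Both windows were searched on both strands for TGCCGC, the letters of the motif that the imprint-guarding protein ZFP57 recognises when methylated, and capitals would mark a match.
H19: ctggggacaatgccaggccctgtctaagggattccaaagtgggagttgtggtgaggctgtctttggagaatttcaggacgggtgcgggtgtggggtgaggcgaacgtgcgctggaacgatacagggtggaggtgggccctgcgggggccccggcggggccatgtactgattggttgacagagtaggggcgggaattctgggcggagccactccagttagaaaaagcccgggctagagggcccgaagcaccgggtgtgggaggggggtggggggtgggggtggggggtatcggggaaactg
Peg3: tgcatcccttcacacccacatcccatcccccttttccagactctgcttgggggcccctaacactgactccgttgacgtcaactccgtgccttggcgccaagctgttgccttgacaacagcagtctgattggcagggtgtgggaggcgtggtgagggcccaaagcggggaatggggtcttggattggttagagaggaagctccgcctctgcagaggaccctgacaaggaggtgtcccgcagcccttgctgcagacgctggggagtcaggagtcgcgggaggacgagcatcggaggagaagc

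The H19 and Peg3 windows held no match, with 15 and 13 CpG dinucleotides in 300 bases. That result covers only these bases and says nothing of sequence outside them. RefSeq promoter windows of 300 bases were matched by symbol for 30 members, which had 44 windows between them because several genes have more than 1 start. A match to TGCCGC was present in 11 of these 44 windows (25%) and in 3813 of all 32851 windows (11.6%). The median number of CpG dinucleotides was 13.5 in members' windows and 7 over all windows. A match is only a description of the letters. The 10 members with a match in a window included Plagl1, Grb10, Nnat, Mest and Meg3.

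The imprinted genes of this set took up a larger share of the transcriptome in 2iJ+B-A than in 2i or 2iJ. Summed over the 37 genes, they held 0.178% of gene counts in 2i and 0.211% in 2iJ. In 2iJ+B-A the share was 0.746%, 1.01% and 0.867% on days 2, 5 and 11. It was 1.15% in the sorted cells and 0.666% and 1.41% in the mesoderm progenitors on days 3 and 4. H19, Igf2 and Peg10 together made up 69.7% to 70.9% of these counts in 2iJ+B-A, but 8.43% in 2i and 17.1% in 2iJ. The summed level of a separate list of other imprinted genes differed less. It was 1668 CPM in 2i, 1484 CPM in 2iJ and 1894, 2193 and 1713 CPM in 2iJ+B-A. Phf17 and Gab1, at 489 and 405 CPM in 2i, weighed most in that sum, so it does not describe single genes. Per kilobase of exon, Nap1l4, a nucleosome assembly protein gene, had the highest level of the set in 2i and in 2iJ, with 86.6 and 94.2 CPM per kilobase. H19 had the highest level in all 3 2iJ+B-A libraries, between 861 and 1452 CPM per kilobase, and in the sorted cells with 2115. In the mesoderm progenitors the order changed again, with Peg10 at 365 CPM per kilobase in first place on day 3 and Igf2 at 689 on day 4. In bulk RNA, fewer expressing cells and less RNA per cell cannot be told apart.

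**Figure D1:**
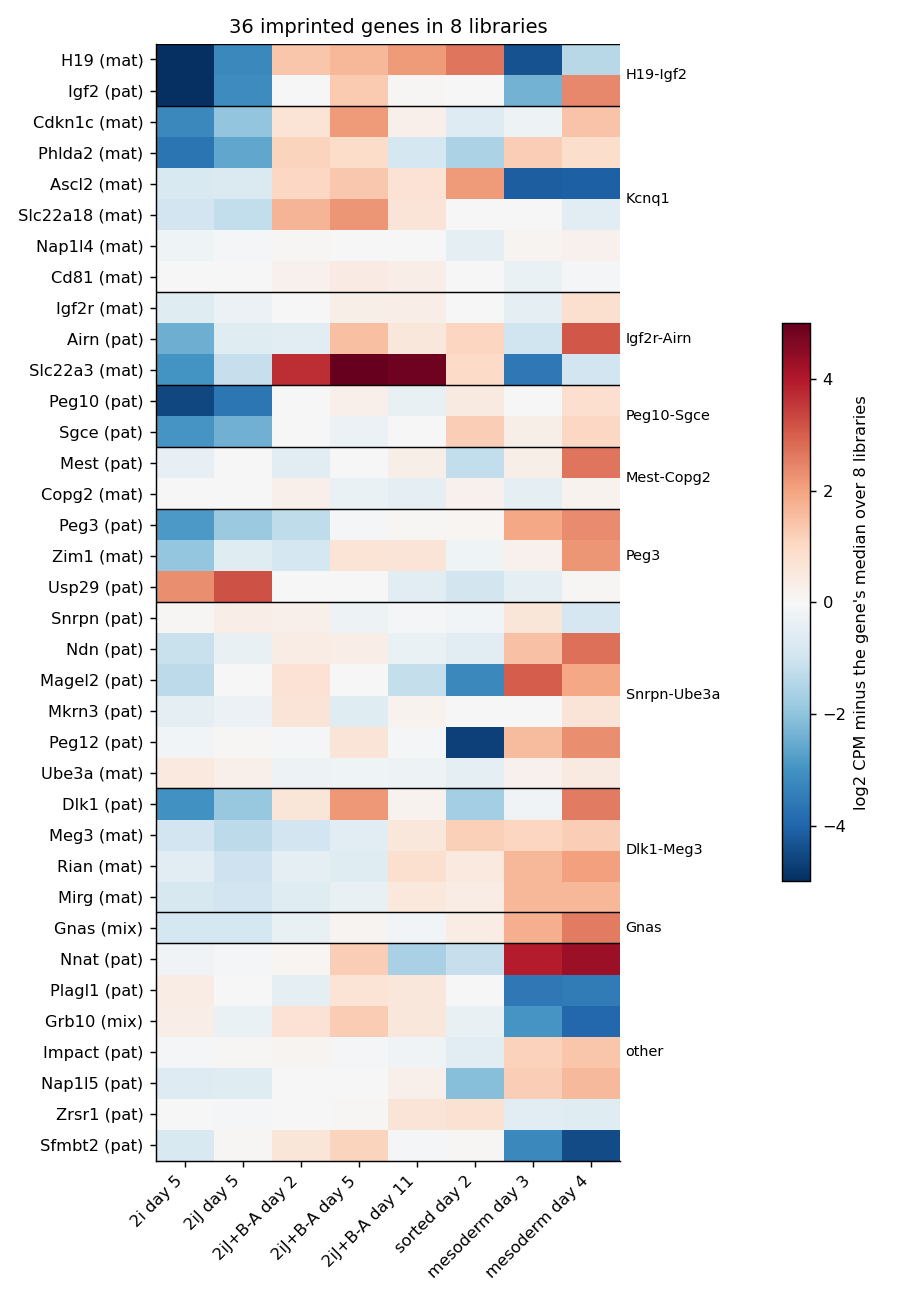
Level of each of the 36 tested imprinted genes (rows) in each library (columns), as log2 CPM minus the gene's median over the 8 libraries. Values under 3 counts are set to 3 counts. Rows are grouped by cluster and give the known expressed parental allele, not measured here, as mat, pat or mix. H19, Igf2, Peg10 and Sgce are lower in 2i and 2iJ than in 2iJ+B-A (H19 and Igf2 reach the end of the scale at -5 in 2i), and Plagl1, Grb10 and Sfmbt2 are lowest in the mesoderm progenitors.

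The first comparison asked what BMP4 and ALK5 inhibitor added to 2iJ. The 2i and 2iJ libraries were both from day 5, so 2iJ+B-A on days 2 and 11 also differed from them in time. At the H19-Igf2 locus both genes were at higher levels in every 2iJ+B-A library. H19 is a maternally expressed noncoding RNA that hosts a microRNA, and its level was 24.1 CPM in 2i, 84.1 CPM in 2iJ, and 2043, 2476 and 3443 CPM in 2iJ+B-A on days 2, 5 and 11. The lowest 2iJ+B-A library was 24.3-fold above 2iJ. Igf2, the paternally expressed fetal growth factor of the same locus, was at 21.1 CPM in 2i, 79.7 CPM in 2iJ and 709.5, 1779 and 749.7 CPM in 2iJ+B-A. These groups did not overlap, and the gap was 8.90-fold.

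Peg10 and its neighbour Sgce differed in the same direction. Peg10 is a paternally expressed gene derived from a retrotransposon and needed for the placenta. Its level was 105 CPM in 2i, 197 CPM in 2iJ and 2447, 2935 and 1884 CPM in 2iJ+B-A. Sgce encodes epsilon-sarcoglycan, a membrane protein, and was at 3.09, 4.44 and then 23.9, 19.3 and 23.6 CPM in the same order. Neither gene overlapped between the groups.

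In the Kcnq1 cluster, 4 of 6 members with a value were at least 2-fold above 2i and 2iJ in every 2iJ+B-A library, against 3.6% of all genes tested. Cdkn1c, the maternally expressed cyclin-dependent kinase inhibitor p57, was at 8.31 CPM in 2i, 19.96 CPM in 2iJ and 127, 343 and 93.5 CPM in 2iJ+B-A. Phlda2, which restrains placental growth, was at 5.26, 10.9 and then 141, 126 and 35.4 CPM. Its day 11 library was well below the first 2 time points and still above 2iJ. Ascl2, a transcription factor of the trophoblast, was at 4.26 and 4.32 CPM in 2i and 2iJ and at 14.6, 18.5 and 12.0 CPM in 2iJ+B-A. Slc22a18, a transporter gene, was low throughout, at 0.853 and 0.701 CPM and then 5.30, 7.50 and 2.60 CPM. The other 2 members of the cluster, Nap1l4 and Cd81, stayed within 125 to 241 CPM over these 5 libraries.

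Slc22a3, an organic cation transporter gene of the Igf2r cluster, had the widest gap of the set. It was at 0.142 CPM (4 counts) in 2i and 0.506 CPM in 2iJ, and at 14.5, 74.4 and 32.4 CPM in 2iJ+B-A, 28.7-fold above 2iJ in the lowest library. Its neighbour Igf2r, the receptor that clears Igf2 from the cell surface, was at 105 and 131 CPM and then 157, 199 and 201 CPM. Airn, the paternal antisense RNA that starts within Igf2r, was at 0.178 and 0.623 CPM and then 0.652, 2.70 and 1.40 CPM. Within this cluster, therefore, Slc22a3 alone was separated by 2-fold or more. Dlk1, a paternally expressed ligand-like membrane protein related to the Notch ligands, was at 0.568 and 1.25 CPM in 2i and 2iJ and at 7.09, 20.5 and 5.18 CPM in 2iJ+B-A.

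Usp29 went the other way. The annotation used here gives it as 1 exon of 2610 bases, for a ubiquitin-specific protease gene of the Peg3 cluster. That exon lies at chr7:6913871-6916480 and Peg3 at chr7:6656603-6683132, both of NCBIM37. The counted bases are thus away from the start region shown with Peg3. Usp29 was at 8.53 CPM in 2i and 15.6 CPM in 2iJ, and at 1.71, 1.72 and 1.17 CPM in 2iJ+B-A. Ube3a, a ubiquitin ligase gene that shows its imprint in neurons, was lower by a smaller amount, with 115 and 97.9 CPM against 69.3, 69.8 and 68.3 CPM.

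**Figure D2:**
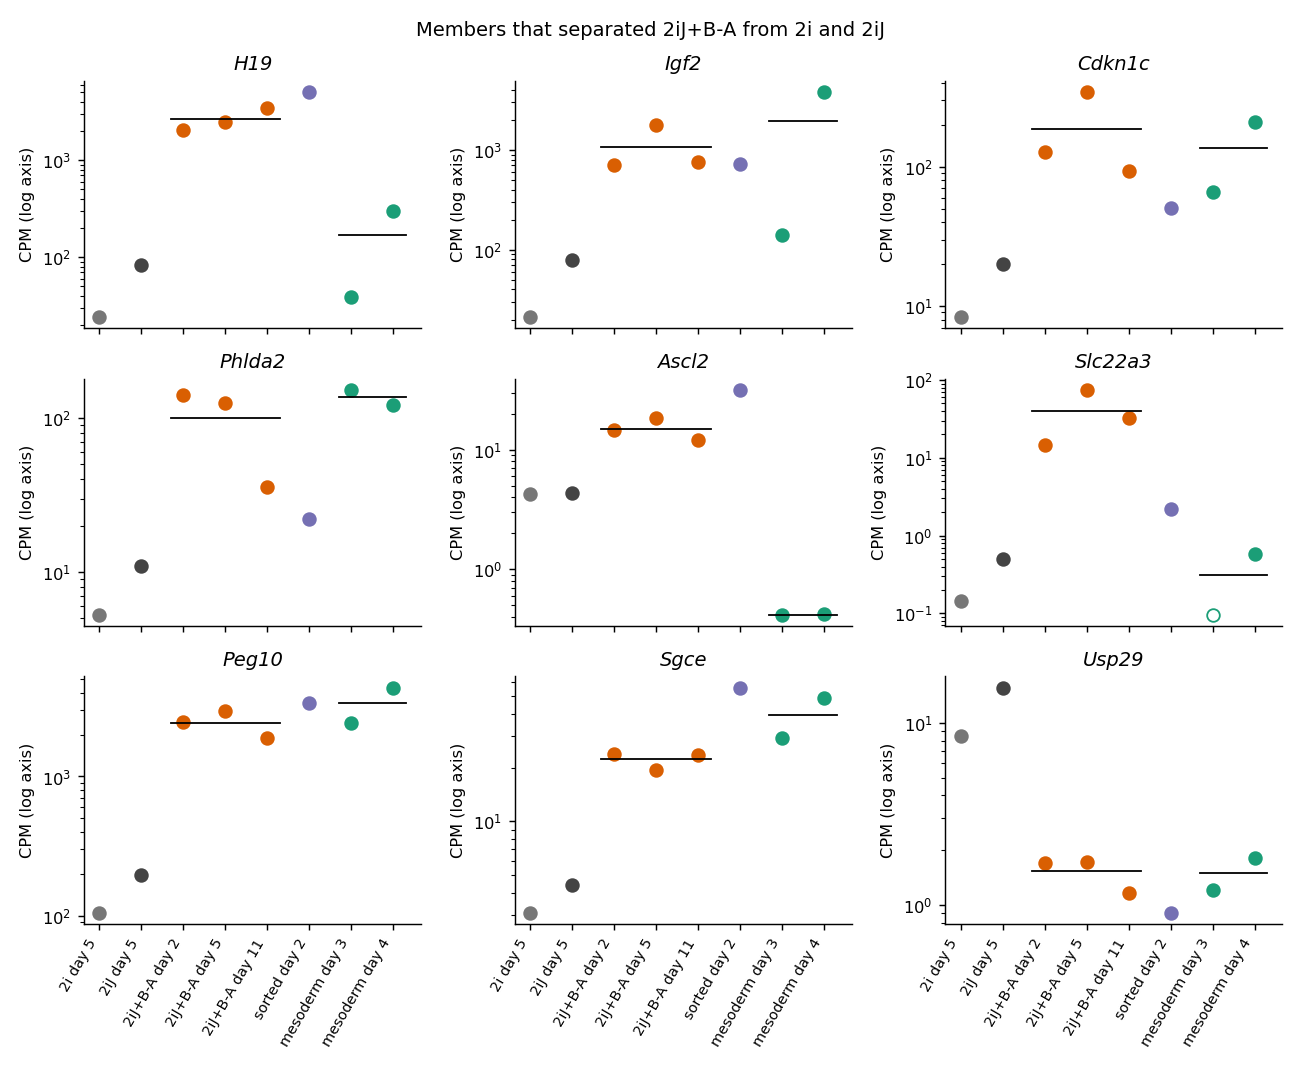
CPM (log axis) of 9 imprinted genes in each of the 8 libraries, with 1 point per library, a line at the mean of the 3 2iJ+B-A and of the 2 mesoderm libraries, and an open point drawn at 3 counts where the library had fewer. For 8 of the genes all 3 2iJ+B-A points lie above 2i and 2iJ, and for Usp29 they lie below, at 1.17 to 1.72 CPM.

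In all, 10 members were at least 2-fold higher in every 2iJ+B-A library than in both 2i and 2iJ, against 3.6% of all genes tested. By the allele known for each gene, which was not measured here, the 10 comprised 6 of the 15 maternally expressed members tested and 4 of the 19 paternally expressed ones. Only Usp29 was at least 2-fold lower, against 2.06% of all genes. No gene at all passed an adjusted p of 0.05 for 2iJ+B-A minus 2iJ in edgeR's quasi-likelihood test with Benjamini-Hochberg adjustment, with a single 2iJ library. The smallest adjusted p among members was 0.244, for Usp29 (log2 fold change -3.41, SE 0.47) and for Peg10 (3.56, SE 0.48). Before adjustment 12 members had p under 0.05, against 7.61% of all genes. DESeq2 called 7 members (Slc22a3, Peg10, H19, Phlda2, Sgce and Ascl2 higher, Usp29 lower), against 2.08% of its genes.

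With 2i and 2iJ pooled as 1 group of 2 in a fit of all 8 libraries, 4 members passed (Peg10, Sgce and Ascl2 higher, Usp29 lower), against 0.884% of all genes. A further fit was added after the data had been seen, with the same pooling and only the 5 unsorted mESC libraries. In it 12 members passed in edgeR's quasi-likelihood test with Benjamini-Hochberg adjustment, against 5.12% of all genes. The largest rise was that of Slc22a3, by 6.88 on the log2 scale (SE 0.93, adjusted p = 0.0163), followed by H19 with 5.54 (SE 0.61, adjusted p = 0.00928) and Igf2 with 4.34 (SE 0.70, adjusted p = 0.0242). Peg10 rose by 3.92 (SE 0.34) and Sgce by 2.49 (SE 0.26), both with an adjusted p of 0.00928. Cdkn1c, Phlda2, Dlk1, Slc22a18 and Ascl2 also rose, by between 1.72 and 3.65. Usp29 fell by 3.05 (SE 0.36, adjusted p = 0.0118) and Ube3a by 0.71 (SE 0.13, adjusted p = 0.0313). Of these, Slc22a3 (adjusted p = 0.0529), H19 (0.0590), Igf2 (0.164), Cdkn1c (0.0812), Phlda2 (0.0565) and Ube3a (0.0692) were among those that did not pass in the pooled fit of all 8 libraries. Both fits treat 2i and 2iJ as replicates of 1 group, although they differ in the JAK inhibitor.

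**Figure D3:**
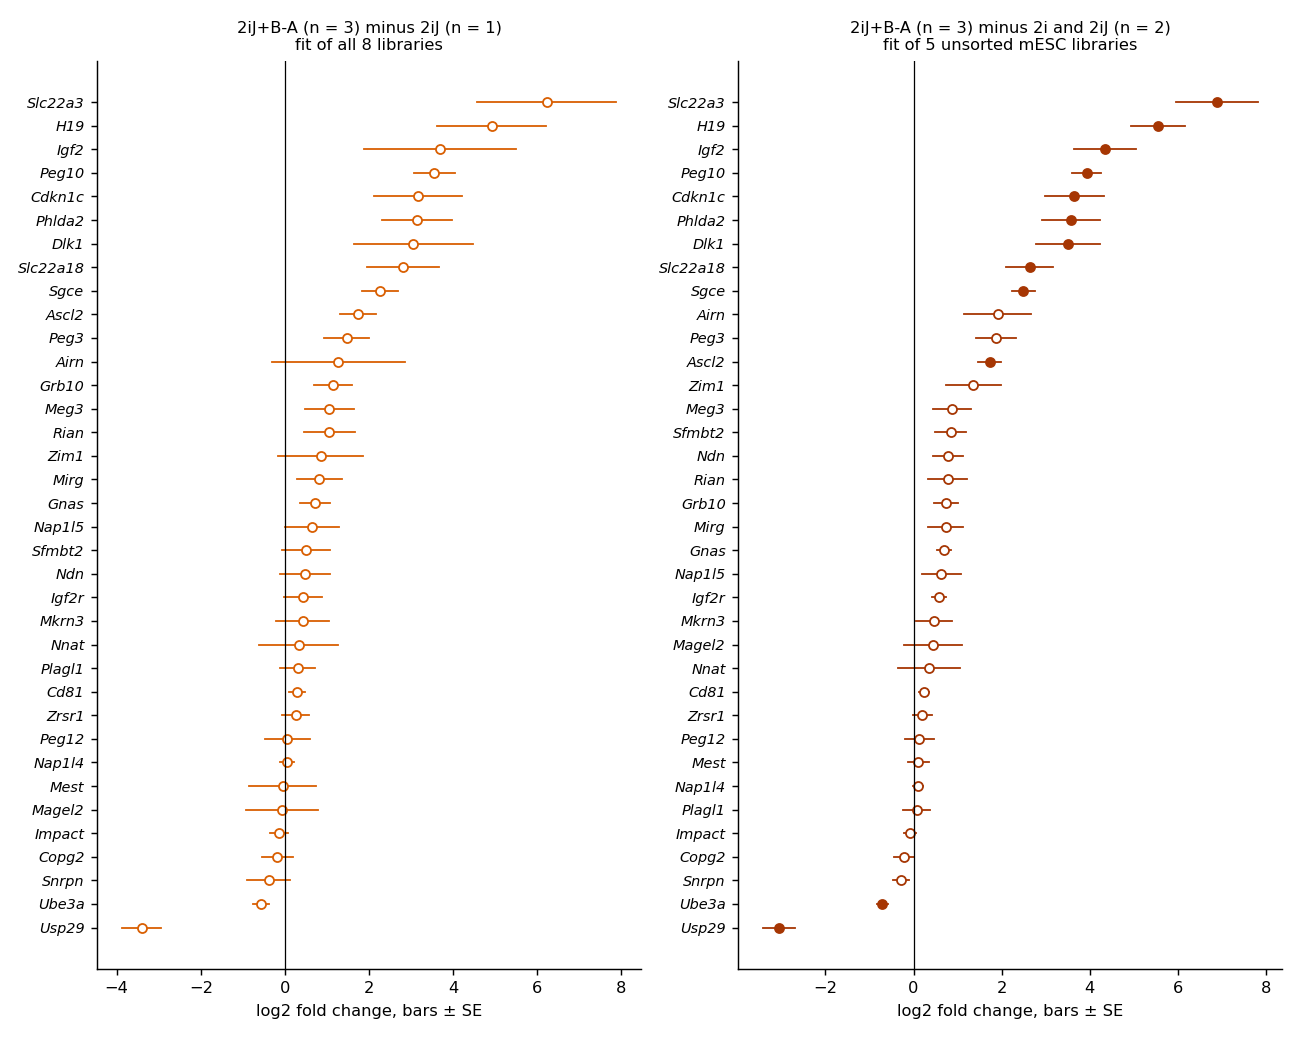
Log2 fold change with its standard error for the 36 tested members, in 2iJ+B-A minus 2iJ over all 8 libraries (left) and in 2iJ+B-A minus the pooled 2i and 2iJ over the 5 unsorted mESC libraries (right), where filled points have an adjusted p under 0.05. No point is filled on the left and 12 are filled on the right, 10 of them above 0.

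Some markers of other cell types were also higher in 2iJ+B-A. The summed mesoderm list was at 55.8 to 141 CPM there, against 28.9 to 37.2 CPM in 2i and 2iJ. The fibroblast list, at 10.8 to 21.0 CPM against 12.75 to 15.45 CPM, overlapped between these groups. So did the neuroectoderm list and the blood and endothelial list. The summed level of the extraembryonic endoderm list was 25.4 CPM in 2i and 30.7 CPM in 2iJ, and 70.6, 122 and 689.6 CPM in 2iJ+B-A on days 2, 5 and 11. The trophectoderm list, led by the keratin genes Krt8 and Krt18, was at 73.7 and 117 CPM and then 564, 1394 and 649 CPM. For 2iJ+B-A minus 2iJ, edgeR called 0 of 10 tested endoderm genes (3 before adjustment, 3 by DESeq2) and 0 of 8 trophectoderm genes (5 before adjustment, 4 by DESeq2). Of the endoderm list, Afp and Ttr were at or near 0 in 2i, in 2iJ and in 2iJ+B-A on days 2 and 5. On day 11 Afp was at 1.79 CPM. Lama1 accounted for 444 of the 689.6 CPM on day 11. Between 2iJ and day 11 of 2iJ+B-A, Gata4 went from 5.41 to 72.8 CPM and Dab2 from 5.60 to 68.3 CPM. Sox17 went from 0.350 to 24.1 CPM and Cubn from 0.311 to 31.5 CPM. Sox7, Foxa2, Gata6 and Amn were also higher on day 11 than in 2iJ. The part of such cells in the levels of the imprinted genes was not tested.

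Between 2iJ and 2i, with 1 library a side and no test, members were mostly higher in 2iJ. Of 36 members, 10 were at least 2-fold higher, against 5.18% of all genes, and 0 were at least 2-fold lower, against 2.69% of all genes. Igf2 was 3.78-fold, Slc22a3 3.56-fold, Airn 3.51-fold and H19 3.49-fold higher in 2iJ. The Slc22a3 and Airn ratios rest on 4 and 5 counts in 2i. Magel2, Zim1, Cdkn1c, Dlk1, Phlda2 and Peg3 were between 2.01-fold and 2.53-fold higher. Both libraries also serve as the reference for 2iJ+B-A, so the comparisons share samples.

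Within 2iJ+B-A, no member passed the test of a slope on log2 day. Of the 36 members, 18 were highest on day 5 (32.4% of all genes were), 8 had a higher value at each step (23.5% of all genes) and 6 a lower one (21.4%). Meg3, a maternally expressed noncoding RNA, had 63.0, 83.0 and 181 CPM on days 2, 5 and 11, and gained 0.60 on the log2 scale per doubling of time (SE 0.12, adjusted p = 0.827 in edgeR's quasi-likelihood test). Rian and Mirg, noncoding RNAs of the same cluster that host small nucleolar RNAs and microRNAs, were at 93.0, 85.8 and 228 CPM and at 6.48, 7.66 and 14.5 CPM. All 3 were highest on day 11. Peg3 was at 120.2, 282 and 306 CPM, and Phlda2 at 141, 126 and 35.4 CPM, neither past the threshold. Before adjustment 6 members had p under 0.05, against 5.92% of all genes. DESeq2 called Meg3 alone of the members (0.61 per doubling, adjusted p = 0.0219), against 0.841% of its genes. The endoderm list was also highest on day 11. For the slope on day, edgeR called 0 of its 10 tested genes (6 before adjustment, 3 by DESeq2). The part of the endoderm list in these levels was not tested.

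The second comparison set the mesoderm progenitors, as cells on the way to a lineage, against 2iJ+B-A. In edgeR's quasi-likelihood test with Benjamini-Hochberg adjustment, 10 of the 36 members were higher and 6 lower, against 11.5% and 15.5% of all genes. The share of members that were lower was thus close to that of all genes. The median log2 fold change was 0.55 over the 36 members and -0.03 over all genes. By the allele known for each gene, the 10 higher members comprised 6 paternally expressed genes, 3 maternally expressed ones and Gnas, which has transcripts of both kinds.

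Nnat and Peg3 were clearly higher. Nnat encodes neuronatin, a small membrane protein of the endoplasmic reticulum, and was at 41.8 and 53.3 CPM in the mesoderm progenitors on days 3 and 4, against 2.89, 6.39 and 0.879 CPM in 2iJ+B-A. It rose by 3.83 on the log2 scale (SE 0.73, adjusted p = 0.0139), by 4.68 without day 5 of 2iJ+B-A, and did not pass without its day 2 (adjusted p = 0.0559). Peg3, a large zinc finger protein gene, was at 1119 and 1492 CPM against 120.2, 282 and 306 CPM, with 40.6 CPM in 2i and 81.5 CPM in 2iJ. It rose by 2.49 (SE 0.39, adjusted p = 0.00779), and no mesoderm library overlapped any mESC library. Its neighbour Zim1, another zinc finger gene, was at 2.23 and 8.79 CPM against 1.02 to 3.08 CPM, and did not pass the test.

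Gnas, which encodes the stimulatory G protein alpha subunit among other products, was at 505 and 873 CPM against 111, 159.9 and 129 CPM. It rose by 2.39 (SE 0.27, adjusted p = 0.00332). Its transcripts are imprinted in opposite directions, and a count per gene cannot part them. Impact, a regulator of the GCN2 stress pathway, was at 353 and 414 CPM against 178, 154 and 141 CPM, and rose by 1.29 (SE 0.17, adjusted p = 0.00467). For both genes the 2i and 2iJ libraries also lay below the mesoderm progenitors, at 78.7 and 77.2 CPM for Gnas and at 149.3 and 166 CPM for Impact.

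In the Snrpn-Ube3a region, known from Prader-Willi and Angelman syndromes in humans, 4 of 6 members rose, against 11.5% of all genes. Ndn, which encodes necdin, was at 25.9 and 63.7 CPM against 12.2, 11.9 and 7.36 CPM (log2 fold change 2.11, SE 0.44, adjusted p = 0.0181). Magel2, of the same protein family, was at 11.3 and 5.36 CPM against 2.32, 1.37 and 0.618 CPM (2.54, SE 0.66, adjusted p = 0.0336). The gains of both genes were seen in each mesoderm library. Peg12, at 11.6 and 19.5 CPM against 3.71, 6.07 and 3.61 CPM, rose by 1.82 (SE 0.41, adjusted p = 0.0233). Ube3a rose by 0.60 (SE 0.15, adjusted p = 0.0298), from 68.3 to 69.8 CPM in 2iJ+B-A to 95.5 and 113 CPM, a range that 2i and 2iJ also reached. Snrpn, which encodes a splicing protein, was at 239 and 86.2 CPM and enclosed the 2iJ+B-A values of 184, 132 and 149.6 CPM. Mkrn3, a zinc finger protein gene, ranged from 4.36 to 10.5 CPM over the 8 libraries and did not pass. All 4 calls of the region were lost without day 5 of 2iJ+B-A (adjusted p from 0.0559 to 0.118) and without its day 11 (0.0514 to 0.0831). Without day 4 of the mesoderm progenitors, Ndn (1.35, adjusted p = 0.0583), Peg12 and Ube3a did not pass, without their day 3 Magel2 did not, and without day 2 of 2iJ+B-A neither Peg12 nor Ube3a passed.

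In the Dlk1-Meg3 cluster 2 noncoding RNAs were higher. Rian was at 411 and 540.1 CPM against 93.0, 85.8 and 228 CPM and rose by 1.82 (SE 0.44, adjusted p = 0.0277). Mirg was at 31.03 and 31.8 CPM against 6.48, 7.66 and 14.5 CPM and rose by 1.73 (SE 0.39, adjusted p = 0.0225). Meg3, at 261 and 286 CPM against 63.0, 83.0 and 181 CPM, missed the threshold (1.34, SE 0.43, adjusted p = 0.0607). Dlk1, the paternally expressed gene of the cluster, was at 4.10 and 28.0 CPM and overlapped 2iJ+B-A (adjusted p = 0.657). The calls of Rian and Mirg were both lost without day 2 of 2iJ+B-A (adjusted p = 0.0837 and 0.0582), without its day 5 (0.0717 and 0.0810) and without day 4 of the mesoderm progenitors (0.0772 and 0.0512). Without day 11 of 2iJ+B-A the rise of Rian was 2.46.

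Of the 6 members that fell, Slc22a3 and Ascl2 did so by the most. Slc22a3 was at 0.0318 CPM (1 count) and 0.581 CPM in the mesoderm progenitors and fell by 6.995 on the log2 scale (SE 1.25, adjusted p = 0.0113), and Ascl2 was at 0.413 and 0.420 CPM, a fall of 5.14 (SE 0.39, adjusted p = 0.00144). Ascl2 was also at 4.26 and 4.32 CPM in 2i and 2iJ, whereas Slc22a3 in those libraries was within the mesoderm range. H19 was at 38.6 and 297 CPM and fell by 3.96 (SE 0.89, adjusted p = 0.022), to a range that includes the 84.1 CPM of 2iJ. The H19 call was lost without any 1 of the 3 2iJ+B-A libraries (adjusted p from 0.0514 to 0.0588), and the fold change was -3.08 without day 3 and -6.06 without day 4 of the mesoderm progenitors. The fold change of Slc22a3 was -6.02 and -10.06 without those days, and -6.19 without day 5 of 2iJ+B-A. Igf2, the neighbour of H19, was at 140.3 and 3784 CPM and enclosed the 2iJ+B-A values (log2 fold change 0.90, SE 1.10, adjusted p = 0.581).

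Plagl1, Grb10 and Sfmbt2 formed a group that was low in mesoderm progenitors against every mESC library. Plagl1, a zinc finger transcription factor gene, was at 9.73 and 10.4 CPM against 86.0 to 189.8 CPM over the 5 unsorted mESC libraries, and fell by 3.88 (SE 0.39, adjusted p = 0.00249). Grb10, an adaptor protein gene that restrains insulin signalling and growth, was at 4.48 and 2.29 CPM against 27.2 to 82.7 CPM, and fell by 4.21 (SE 0.41, adjusted p = 0.00234). Sfmbt2, a Polycomb protein gene imprinted in extraembryonic tissue, was at 13.5 and 5.62 CPM against 75.0 to 275 CPM, and fell by 4.36 (SE 0.54, adjusted p = 0.00419), with a log2 fold change of -5.05 without day 3 of the mesoderm progenitors. Grb10 has a maternal and a paternal form in different tissues, which the counts do not part.

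**Figure D4:**
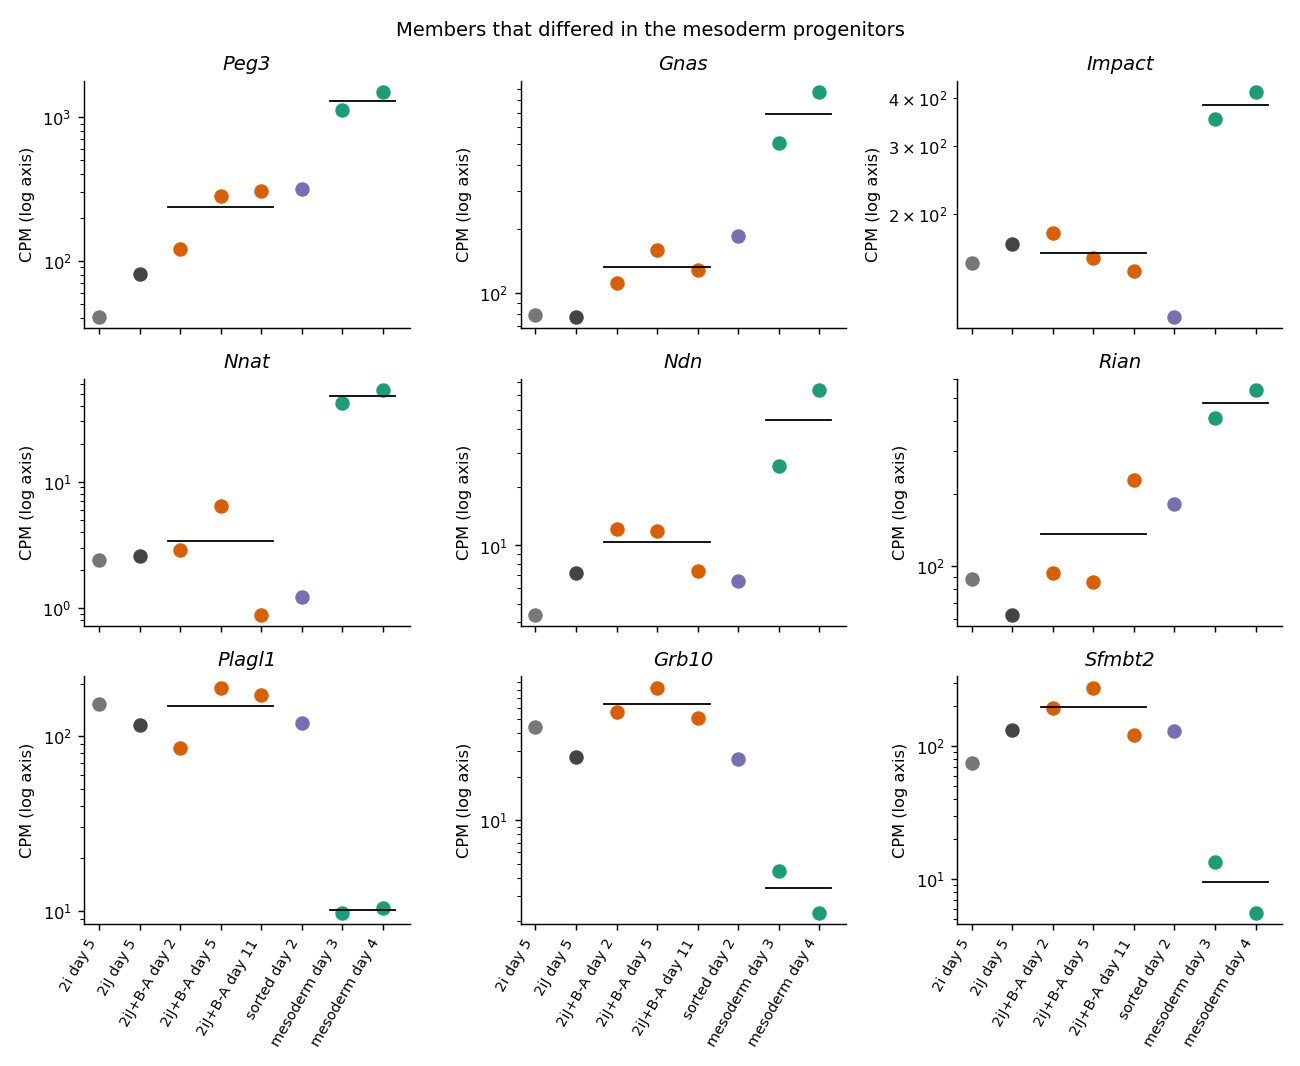
CPM (log axis) of 9 imprinted genes in each of the 8 libraries, drawn as in the plot of the 9 genes of 2iJ+B-A, with 1 point per library and lines at group means. Peg3, Gnas, Impact, Nnat and Ndn have both mesoderm points above the 5 unsorted mESC points, and Plagl1, Grb10 and Sfmbt2 have both below.

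Set against all 5 unsorted mESC libraries, 6 members were at least 2-fold higher in both mesoderm libraries (Peg3, Mirg, Ndn, Magel2, Nnat and Gnas), against 5.25% of all genes. Ascl2, Plagl1, Grb10 and Sfmbt2 were at least 2-fold lower, a share of the members close to the 10.2% of all genes. With the mean of the 3 unsorted mESC groups as reference, 18 members were higher and 5 lower, against 15.7% and 16.4% of all genes, and 3 calls were lost: H19 (log2 fold change -0.09, adjusted p = 0.938), Slc22a3 (-2.25) and Ube3a (0.14). The count of 16 became 10 when day 2 of 2iJ+B-A was left out and 9 when its day 5 was left out, and the 10 higher calls became 5 without day 4 of the mesoderm progenitors. Blood and endothelial markers were also higher in the mesoderm progenitors (3 of 5 tested), with a summed level of 7.79 and 75.5 CPM on days 3 and 4, and their part in these results was not tested.

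The day 3 and day 4 mesoderm progenitors, set apart by IWP-2 as well as by a day, were compared as 2 single libraries with no test. Igf2 was 27.0-fold higher on day 4, Airn 17.1-fold, H19 7.71-fold, Dlk1 6.84-fold and Slc22a3 6.10-fold. Mest, a hydrolase-family gene expressed in embryonic mesoderm, was at 94.4 and 495 CPM, a 5.24-fold difference, and Igf2r was at 119 and 277 CPM, 2.33-fold higher. Zim1, Cdkn1c and Ndn completed the 10 members at least 2-fold higher, against 9.47% of all genes. Snrpn (2.77-fold), Sfmbt2 (2.398-fold) and Magel2 (2.11-fold) were lower, against 11.7% of all genes. The mesoderm list itself went from 1746 to 1163 CPM between these libraries, with T at 547 and then 6.30 CPM, and Kdr at 67.8 and 305 CPM.

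The third comparison set the sorted Cdx2-GFP-positive cells against unsorted 2iJ+B-A, to ask how cells with the reporter differ from the whole culture. H19 had its highest level of the series there, 5018 CPM, against 2043, 2476 and 3443 CPM. Its log2 fold change of 0.97 (SE 0.89, adjusted p = 0.515) did not pass. Peg10 at 3364 CPM was above 1884 to 2935 CPM by less than 2-fold, and Igf2 at 718 CPM was within 709.5 to 1779 CPM. The other named members that did not pass lay at 163 CPM (Igf2r), 32.7 CPM (Mest), 108 CPM (Impact), 316 CPM (Peg3), 185 CPM (Gnas), 119 CPM (Plagl1) and 26.6 CPM (Grb10). Mest was at 57.7 and 75.1 CPM in 2i and 2iJ and at 53.2, 78.8 and 94.5 CPM in 2iJ+B-A. Ascl2 was at 31.6 CPM against 12.0 to 18.5 CPM, and Meg3 at 278 CPM against 63.0 to 181 CPM, neither past the threshold.

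Only Peg12 passed edgeR's quasi-likelihood test with Benjamini-Hochberg adjustment (adjusted p = 0.0195). It had 0 counts in the sorted library, against a mean of 4.46 CPM ± 1.39 (SD, n = 3) in 2iJ+B-A. A floor of 3 counts, or 0.151 CPM, was set in place of 0, and the true level could lie above it. On that floor Peg12 was 29.5-fold below the mean and 23.9-fold below the lowest library of 2iJ+B-A. Its call was lost on leaving out any 1 of the 3 libraries of 2iJ+B-A, and with the comparison made at day 2 from a slope on time. Among all genes 3.34% were higher and 2.08% lower, while 0 members were higher. Before adjustment 10 of the 36 members had p under 0.05, close to the 27% of all genes. DESeq2 called 5 of the 36, a share no larger than the 17.2% of its genes. These were Sgce, which was higher, and Slc22a3, Magel2, Peg12 and Phlda2, which were lower.

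By level, Sgce alone of the members was at least 2-fold above all 2iJ+B-A libraries (55.9 CPM against 19.3 to 23.9 CPM), against 9.98% of all genes. Slc22a3 at 2.17 CPM, Dlk1 at 1.41 CPM, Magel2 at 0.101 CPM (2 counts), Peg12 and Nap1l5 at 0.0505 CPM (1 count) were at least 2-fold below. That share of the members was not far from the 10.2% of all genes. Ndn, beside Magel2 and Peg12 on chromosome 7, was at 6.56 CPM against 7.36 to 12.2 CPM, and Snrpn at 142 CPM was within the range of 2iJ+B-A. The fibroblast list was also higher in the sorted cells, at 115 CPM against 10.8 to 21.0 CPM, with Col1a1 and Col3a1 past the threshold, and the trophectoderm list was at 3958 CPM against 564 to 1394 CPM. Their part in these levels was not tested.

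**Figure D5:**
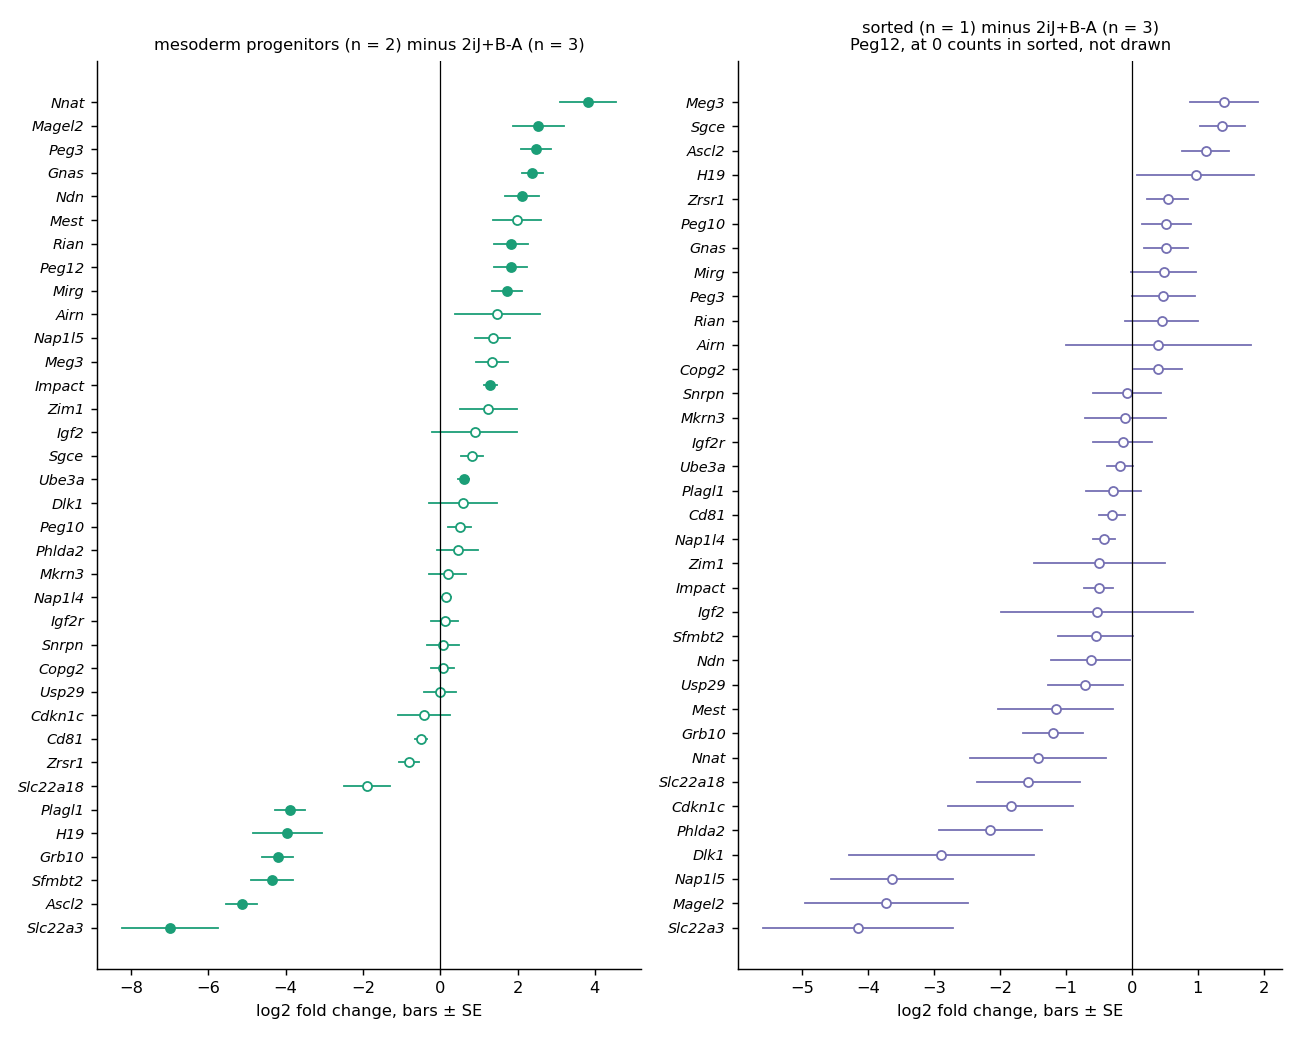
Log2 fold change with its standard error for tested members in mesoderm progenitors minus 2iJ+B-A (left, 36 genes) and in sorted minus 2iJ+B-A (right, 35 genes, without Peg12), where filled points have an adjusted p under 0.05. On the left 16 points are filled, 10 of them above 0, and on the right none is.

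Strand-specific counting allowed the opposite strand to be read at each member. Over all genes, between 5.03% and 6.47% of strand-assigned counts lay on the opposite strand. At Copg2, a coatomer gene on the minus strand whose annotated exons share 20.2% of their bases with Mest, the share was 13.7% in the sorted cells and 68.3% in the mesoderm progenitors on day 4. That was the library in which Mest itself was highest, at 495 CPM. At Nnat the share was 22.7% to 52.9% in the 6 mESC libraries, sorted cells included, and 5.55% and 5.73% in the mesoderm progenitors. Nnat had few sense counts in mESCs (24 in the sorted cells), and an annotated antisense gene covers 4.76% of its exon bases. H19 and Igf2 had at most 3.81% on the opposite strand in every library.

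The remaining members are given by their ranges. Copg2 was between 62.1 and 101 CPM and Zrsr1, a splicing factor gene within an intron of Commd1, between 21.4 and 54.3 CPM over the 8 libraries. Nap1l5, an intronless gene of the nucleosome assembly family, went from 0.0505 CPM in the sorted cells to 2.00 CPM in the mesoderm progenitors on day 4. Cd81 ranged from 101 to 169 CPM and Nap1l4 from 168 to 263 CPM. In all, 32 of the 36 tested members spanned 2-fold or more between their lowest and highest libraries, as did 75.7% of all genes tested.

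Other imprinted genes and factors known to hold imprints were examined as lists. Of 41 other imprinted genes tested, 5 were higher and 7 lower in the mesoderm progenitors than in 2iJ+B-A, close to the 11.5% and 15.5% of all genes, and 0 passed in the other 3 tests by edgeR. Before adjustment 10 of them had p under 0.05 for sorted cells, 6 for 2iJ+B-A minus 2iJ and 1 for the slope on day, against 27%, 7.61% and 5.92% of all genes, and DESeq2 called 4, 0 and 0. Zdbf2, at 469 and 377 CPM against 53.0 to 64.5 CPM, rose by 2.82 on the log2 scale (SE 0.17, adjusted p = 0.000934 in edgeR's quasi-likelihood test), and Dhcr7, an enzyme gene of cholesterol synthesis, rose by 1.73. Phf17, at 64.3 and 45.1 CPM against 450.3 to 512 CPM, fell by 3.14 (SE 0.20, adjusted p = 0.00104). Gab1 (-1.98), Ddc (-4.10) and Smoc1 (-3.50) also fell. Of 23 imprint factors tested, 3 were higher and 9 lower in the mesoderm progenitors, against 11.5% and 15.5% of all genes. Dnmt3b, a de novo DNA methyltransferase, was at 382 and 457 CPM against 83.3 to 219.9 CPM and rose by 1.53 (SE 0.37, adjusted p = 0.028 in edgeR's quasi-likelihood test). Zfp57 was at 127 and 75.0 CPM against 197 to 475 CPM and fell by 1.72 (SE 0.41, adjusted p = 0.0264). Trim28, its partner (-0.71), the methyltransferase gene Setdb1 (-0.79), the Polycomb gene Eed (-1.21) and Tet1 (-1.02), which oxidises methylcytosine, fell as well. For 2iJ+B-A minus 2iJ edgeR called 0 of the 23 factors (3 before adjustment, 1 by DESeq2). In the sorted cells, 1 library of another line, edgeR called 1 of the 23 factors as lower, against 2.08% of all genes. Before adjustment 7 had p under 0.05, against 27% of all genes, and DESeq2 called 7, against 17.2% of its genes. The edgeR call was Ctcf, an insulator protein gene (log2 fold change -0.89, SE 0.18, adjusted p = 0.0478 in edgeR's quasi-likelihood test).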

How the data were processed

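Poly-A RNA libraries prepared with strand information were sequenced as read pairs. The deposited values are raw read-pair counts per gene that the authors made with STAR (2.4.2a per the submitters' processing notes, after bcl2fastq 2.17 and cutadapt) on NCBIM37, unstranded and for each strand. The study adjusted its own values between experiments, and no such adjustment is in these counts.

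Reverse-strand counts were used, and CPM are shares of gene counts. Genes were matched by symbol to GENCODE vM1. All 8 libraries were fitted in edgeR 4.0.16 (R 4.3.3; TMM, quasi-likelihood test, Benjamini-Hochberg over 16961 genes) with 5 group coefficients and 3 residual degrees of freedom, and 2 for the slope on log2 day. Genes needed 10 counts in 2 libraries. SE is the fold change over the root of F. DESeq2 1.42.0 was an alternative. Folds against 0 used a floor of 3 counts per library. Members and lists were chosen with earlier results of these data known. Members that passed a test, and 16 fixed by name (H19, Igf2, Peg3, Gnas and the like, Kcnq1ot1 without a value), are given by library; other lists by counts, with at most 6 names, those of highest mean CPM. A further sequence window is not reported here.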

Additional observations from a re-analysis of the deposited data

How the results depend on the processing

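With 3 residual degrees of freedom and single libraries in 3 groups, the tests have little power, and day is part of the spread within groups. In a set of counts simulated for the mesoderm comparison, the share of unchanged genes among the calls was above the nominal rate. The adjusted p may therefore understate false calls. The 16 members called for mesoderm progenitors minus 2iJ+B-A were 22 by DESeq2, 16 with RLE scaling, 18 without a filter, 16 with unstranded counts, 16 with only the 2 groups and 16 without the sorted library. Leaving out 1 library gave 9 to 20. The 1 call for sorted minus 2iJ+B-A was 5 by DESeq2, 0 with a slope on day compared at day 2, and 0 to 2 without 1 library. The 0 calls for 2iJ+B-A minus 2iJ were 7 by DESeq2, 4 with 2i and 2iJ pooled, and 12 with them pooled in the 5 unsorted mESC libraries, an alternative chosen after seeing the data, as was leaving out the sorted library. The 0 calls for the slope on day were 1 by DESeq2 and 0 to 3 without 1 library (2 and 3 without mesoderm day 3 or day 4, which changes only the shared estimate of spread). Single log2 fold changes were followed under alternatives for 24 results only. These were the members called in the main fits. For 2iJ+B-A minus 2iJ they were H19, Igf2, Cdkn1c, Phlda2, Slc22a3, Peg10 and Sgce, none of them called. Of the alternative values, 241 kept their direction and side of the threshold, 31 lost the call, 14 gained it and 0 changed direction. All 24 were picked from these same libraries, so the tally does not describe the other members. TMM-scaled CPM left 9 of the 10 members past 2-fold for 2iJ against 2i and 13 of 13 for mesoderm day 4 against day 3. No paired analysis was possible because the labels give no replicate numbers shared between groups. Depth limits Slc22a3, Airn, Magel2, Peg12 and Nap1l5, which had 5 counts or fewer in at least 1 library.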
